A study of Rattus norvegicus with 15 samples.

Results

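The transcripts of the receptors for leptin, adiponectin, insulin, insulin-like growth factor 1 (IGF1) and ghrelin were followed in the rat subfornical organ through 6 genes, Lepr, Adipor1, Adipor2, Insr, Igf1r and Ghsr. Every probe set whose annotation names a member of this group alone was taken, which gave 16 of the 31099 probe sets on the array, for 6 of 14217 genes that have a probe set of their own. Of the 16, 10 were bright enough to be tested, and at least 1 probe set of each gene was among them. Lepr has 7 probe sets, of which 2 were tested. Each probe set is given on its own, because probe sets differ in sensitivity and their levels cannot be set against each other.

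The study compared 3 groups, water-deprived, food-deprived and control rats, with 5 Affymetrix expression arrays in each. All animals were male Sprague Dawley rats of 10 to 12 weeks, and each array carried RNA pooled from the subfornical organs of 5 animals, so 25 animals stand behind each group. The labels name 48 h without food as the treatment of the food-deprived samples. For the rest they name the group and give no time without food, while the design text, read literally, has every condition go without food. The duration of water deprivation is not stated there.

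The subfornical organ lies outside the blood-brain barrier, at the wall of the third ventricle, so its cells meet circulating hormones directly. Leptin from fat acts on the receptor encoded by Lepr, whose long form signals through Jak2 and Stat3. Adiponectin, also from fat, acts on the membrane receptors Adipor1 and Adipor2, which couple to AMP-activated kinase and PPAR alpha. Insulin and IGF1 act on the tyrosine kinases Insr and Igf1r, which signal through Irs proteins, PI3 kinase and Akt and keep Foxo factors out of the nucleus. Ghrelin, the stomach hormone that rises in fasting, acts on the G protein-coupled receptor Ghsr. Together these receptors report fat stores and recent feeding to the brain.

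By the 5′/3′ signal ratio of the Actb and Gapdh control probe sets, the arrays form a high and a low set, and this split bears on every value below. The high set of 7 holds water-deprived arrays 1 and 2 and every food-deprived array, with log2 ratios of -0.86 to -0.71. The low set of 8 holds water-deprived arrays 3 to 5 (-2.81 to -1.28) and all 5 controls (-1.67 to -1.24). Food-deprived and control arrays share no set, so between them the set and the food deprivation cannot be told apart except through the water-deprived arrays. Most differences are therefore also given with the array set as a term in the fit. As food-deprived and control arrays lie in 1 set each, its high minus low difference comes only from water-deprived arrays 1 and 2 against arrays 3 to 5. Of 7 subfornical organ markers, all had a probe set and 6 passed the filter. Their summed signal was 959 to 2156 in water-deprived, 1123 to 1319 in food-deprived and 946 to 2122 in control arrays. Among the water-deprived arrays it moved with the set, at 1037 and 959 in arrays 1 and 2 of the high set and 1713 to 2156 in arrays 3 to 5 of the low set, and its part in the values with the set term was not tested. A lower signal may reflect fewer cells of a type or less RNA per cell, which these bulk samples cannot tell apart.

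Between food-deprived and control arrays, 3 of the 10 receptor probe sets tested were higher, 1 each of Insr, Adipor2 and Ghsr, and none was lower (limma, Benjamini-Hochberg adjusted p under 0.05 over 21741 probe sets). In that comparison 4.77% of all probe sets tested were called higher and 3.76% lower. Between water-deprived and control arrays no receptor probe set was called, against 0.0046% of all probe sets called higher and 0% called lower, and 1 of the 10 had an unadjusted p under 0.05, as did 6.49% of all probe sets. Between water-deprived and food-deprived arrays none was called either, against 0.133% called higher and 0.0184% called lower, and 2 of the 10 had an unadjusted p under 0.05, as did 15.8% of all probe sets. The median difference of the 10 was 0.13 (log2) between food-deprived and control arrays and 0.14 between water-deprived and control arrays, where all probe sets had medians of 0.05 and 0.00. The 2 comparisons with control share the control arrays. All differences are on the log2(signal + 16) scale, which understates the change of dim probe sets.

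With the array set as a term, no receptor probe set was called in any of the 3 comparisons, and none had an unadjusted p under 0.05, against 5.96% to 10% of all probe sets. In that fit 0% of all probe sets were called between food-deprived and control arrays and between water-deprived and food-deprived arrays, in either direction. Between water-deprived and control arrays 0.0276% were called higher and 0% lower. The median difference of the 10 receptor probe sets was then -0.36 for food-deprived minus control, -0.05 for water-deprived minus control and 0.31 for water-deprived minus food-deprived.

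**Figure D1:**
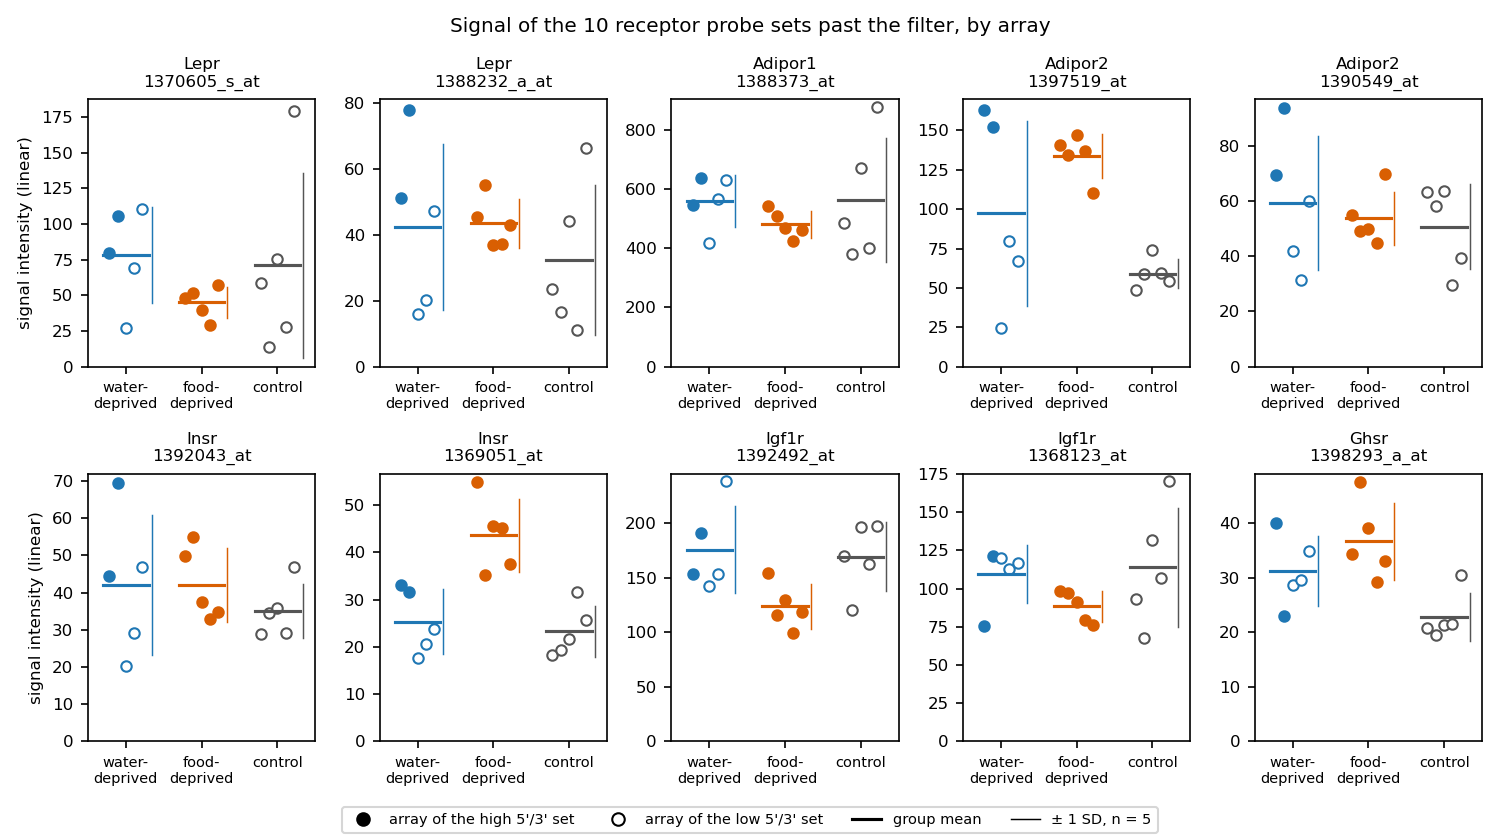
Signal intensity (linear) of the 10 receptor probe sets past the filter in water-deprived, food-deprived and control arrays, with filled points for the high and open points for the low 5′/3′ set, bars at the group mean and thin lines of 1 SD on either side (n = 5). The food-deprived points of Insr 1369051_at and Adipor2 1397519_at all lie above the highest control point, and the filled water-deprived points of Adipor2 1397519_at lie above the food-deprived ones.

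Lepr, the leptin receptor gene, passed no test between the groups in either tested probe set, and its spread within the water-deprived and control groups was wide. Probe set 1370605_s_at had signals of 79.4, 105, 26.9, 69.3 and 111 in water-deprived arrays 1 to 5, 48.1, 51.9, 39.7, 29.5 and 57.0 in food-deprived arrays and 58.6, 14.0, 75.4, 27.8 and 179 in controls. The control values alone spanned more than those of the other groups, and all 3 groups overlapped. The log2 difference was 0.32 for water-deprived minus control (SE 0.40, adjusted p = 0.883), -0.22 for food-deprived minus control (SE 0.40, adjusted p = 0.772) and 0.55 for water-deprived minus food-deprived (SE 0.40, adjusted p = 0.532). In mean signal the order was water-deprived (78.3 ± 33.5), control (70.9 ± 65.1) and food-deprived (45.2 ± 10.9, SD, n = 5 each), with neighbours apart by less than their spread. With the array set as a term, the 3 differences were 0.13, -0.70 and 0.83.

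Probe set 1388232_a_at of Lepr had 51.1, 77.8, 15.97, 20.1 and 47.3 in water-deprived arrays, 45.5, 55.0, 37.0, 37.1 and 42.9 in food-deprived arrays and 23.4, 16.6, 44.1, 11.2 and 66.3 in controls. Water-deprived array 3 and control arrays 2 and 4, which were the lowest of their groups in 1370605_s_at, were the lowest here too. Its differences were 0.28 for water-deprived minus control (SE 0.31), 0.41 for food-deprived minus control (SE 0.31) and -0.13 for water-deprived minus food-deprived, with adjusted p values of 0.867, 0.425 and 0.874. All 3 turned sign when the array set was a term, to -0.09, -0.51 and 0.42. The 95% interval of the food-deprived minus control difference, -0.24 to 1.06, reached to both sides of 0.

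The remaining 5 Lepr probe sets were under the filter and have no test. Probe set 1371223_a_at spanned 0.80 to 53.9 in water-deprived, 4.39 to 37.2 in food-deprived and 3.31 to 50.96 in control arrays. It was again lowest in water-deprived array 3 and control array 2. Probe set 1370604_at spanned 1.73 to 27.0 in water-deprived, 1.63 to 8.12 in food-deprived and 0.34 to 35.3 in control arrays, its highest value being that of control array 5, the array highest for 1370605_s_at as well. Probe sets 1388260_a_at, 1369739_at and 1371222_at stayed between 1.86 and 30.1 on every array. In the maker's naming the suffix _a_at marks probes shared by several transcripts of the same gene and _s_at probes shared by several transcripts in general. The target stretches of the probe sets were not used here, so the long and short receptor forms are not separated.

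Adipor1, which encodes the adiponectin receptor tied mainly to AMP-activated kinase, passed no test between the groups in its only probe set. Probe set 1388373_at had 546, 638, 419, 565 and 629.7 in water-deprived arrays, 542, 507, 469.6, 425 and 460.3 in food-deprived arrays and 486, 381, 669.9, 399.9 and 877 in controls. The groups overlapped throughout, and control array 5 was the highest of the 15. The difference was 0.05 for water-deprived minus control (SE 0.19, adjusted p = 0.967), -0.15 for food-deprived minus control (SE 0.19, adjusted p = 0.655) and 0.20 for water-deprived minus food-deprived (adjusted p = 0.635). The interval of the food-deprived minus control difference ran from -0.56 to 0.25. Adding the array set as a term gave -0.01, -0.30 and 0.29.

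Adipor2, which encodes the receptor tied mainly to PPAR alpha, was higher in food-deprived than in control arrays in probe set 1397519_at. Signals were 163, 152, 24.5, 80.0 and 67.1 in water-deprived arrays, 141, 134, 147, 137 and 110.5 in food-deprived arrays and 48.5, 58.7, 73.9, 59.8 and 54.7 in controls. All 5 food-deprived arrays lay above the highest control, and so did water-deprived arrays 1, 2 and 4. Food-deprived exceeded control arrays by 1.00 (log2, SE 0.29, 2.00-fold, adjusted p = 0.0464), water-deprived exceeded control arrays by 0.41 (SE 0.29, adjusted p = 0.799), and water-deprived minus food-deprived was -0.59 (adjusted p = 0.348).

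Within the water-deprived group, arrays 1 and 2 of the high set (mean log2 7.44) stood 1.34 above arrays 3 to 5 of the low set (mean 6.10), with no overlap. Within the low set, water-deprived minus control was -0.12, and within the high set, water-deprived minus food-deprived was 0.21. Once the array set was a term, the food-deprived minus control difference of Adipor2 1397519_at was -0.34 (SE 0.32, adjusted p = 0.762). The call without that term was also lost when any food-deprived or control array or water-deprived array 4 or 5 was left out (adjusted p = 0.0535 to 0.103) and kept without water-deprived array 1, 2 or 3.

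The second tested probe set of Adipor2, 1390549_at, was not called between food-deprived and control arrays. It had 69.4, 93.7, 41.8, 31.3 and 60.0 in water-deprived, 54.7, 49.1, 49.9, 44.9 and 69.6 in food-deprived and 63.1, 58.1, 63.5, 29.7 and 39.2 in control arrays. Its differences were 0.15, 0.09 and 0.06 for water-deprived minus control, food-deprived minus control and water-deprived minus food-deprived, and -0.14, -0.62 and 0.49 with the array set as a term. As in 1397519_at, water-deprived arrays 1 and 2 lay above arrays 3 to 5 with no overlap, here by 0.71 on the mean. The untested 1395146_at spanned 4.04 to 29.7 in water-deprived, 15.5 to 20.9 in food-deprived and 1.56 to 17.7 in control arrays. The 2 tested Adipor2 probe sets thus gave food-deprived minus control differences of 1.00 and 0.09.

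Insr, the insulin receptor gene, was higher in food-deprived than in control arrays in probe set 1369051_at. The signals were 33.1, 31.7, 17.6, 20.6 and 23.8 in water-deprived arrays, 54.8, 35.3, 45.5, 45.1 and 37.6 in food-deprived arrays and 18.3, 19.3, 21.7, 31.6 and 25.7 in controls. All 5 food-deprived arrays lay above every array of the other groups. Food-deprived exceeded control arrays by 0.60 (log2, SE 0.14, 1.52-fold, adjusted p = 0.0159), and this passed in all 15 fits that left out 1 array, with differences of 0.54 to 0.67. Water-deprived minus control was 0.07 (SE 0.14, adjusted p = 0.929).

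Water-deprived minus food-deprived was -0.53 for Insr 1369051_at (SE 0.14, adjusted p = 0.0945). Leaving out water-deprived array 1 made it pass (-0.60, adjusted p = 0.032), and so did leaving out water-deprived array 2 (-0.59, adjusted p = 0.0453). Inside the high set, water-deprived arrays 1 and 2 were both below the lowest food-deprived array, with a mean difference of -0.29. They were also above water-deprived arrays 3 to 5, by 0.40 on the mean. Adding the set as a term, the food-deprived minus control difference was 0.20 (SE 0.20, 95% interval -0.24 to 0.63, adjusted p = 0.778) and the water-deprived minus food-deprived difference -0.29 (adjusted p = 0.545). The latter is the same contrast as the one inside the high set.

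Insr probe set 1392043_at had 44.6, 69.5, 20.2, 29.2 and 46.8 in water-deprived, 49.9, 55.1, 37.4, 32.8 and 34.8 in food-deprived and 29.0, 34.5, 35.7, 29.1 and 47.01 in control arrays. The groups overlapped, and food-deprived arrays 1 and 2 and water-deprived array 2 lay above the highest control. Food-deprived minus control was 0.18 (SE 0.20, adjusted p = 0.607), against 0.60 in 1369051_at, and it was -0.44 with the array set as a term.

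Igf1r, the IGF1 receptor gene, had its lowest mean in food-deprived arrays in both probe sets, without passing the test. Probe set 1392492_at had 154, 191, 142, 153 and 239 in water-deprived, 154, 116, 129.5, 99.7 and 119 in food-deprived and 169.8, 120.3, 196, 163 and 197 in control arrays. Of the food-deprived arrays 3 lay below the lowest control. Food-deprived minus control was -0.40 (SE 0.15, adjusted p = 0.111) and water-deprived minus food-deprived 0.45 (SE 0.15, adjusted p = 0.179). Without control array 2 the food-deprived minus control difference passed, at -0.51 (adjusted p = 0.049). These differences were -0.38 (SE 0.27, adjusted p = 0.678) and 0.43 (SE 0.21, adjusted p = 0.51) with the array set as a term, and the high minus low set difference of this probe set was -0.02.

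Probe set 1368123_at of Igf1r had 75.8, 121, 120.2, 113 and 117 in water-deprived, 98.3, 97.0, 91.1, 79.1 and 76.4 in food-deprived and 93.1, 67.9, 132, 107 and 170.2 in control arrays. The groups overlapped, with water-deprived array 1 apart from the other 4 of its group. Food-deprived minus control was -0.27 (SE 0.18, adjusted p = 0.362), and -0.03 with the array set as a term.

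Ghsr, the ghrelin receptor gene, was higher in food-deprived than in control arrays. Its only probe set, 1398293_a_at, had 40.0, 23.0, 28.6, 29.6 and 34.8 in water-deprived arrays, 34.4, 47.6, 39.1, 29.2 and 33.0 in food-deprived arrays and 20.8, 19.5, 21.4, 21.5 and 30.5 in controls. Of the food-deprived arrays 4 lay above the highest control, and control array 5 stood apart from the other 4 controls. Food-deprived exceeded control arrays by 0.44 (log2, SE 0.12, 1.36-fold, adjusted p = 0.041). Water-deprived minus control was 0.28 (SE 0.12, adjusted p = 0.752) and water-deprived minus food-deprived -0.16 (SE 0.12, adjusted p = 0.564).

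With all 15 arrays, the Ghsr difference kept its size when the array set was a term, and its error grew. With that term, food-deprived minus control ranged from 0.18 without water-deprived array 2 to 0.71 without water-deprived array 1. In the fit of all arrays food-deprived minus control was 0.45 (SE 0.22, adjusted p = 0.59) and water-deprived minus control 0.28 (SE 0.14, adjusted p = 0.869). The high minus low set difference was -0.01 (SE 0.18). That set difference is the gap between the 2 high and 3 low water-deprived arrays, whose mean log2 values were 5.55 and 5.55. The call without the set term was lost when food-deprived array 1, 2, 3 or 5 or control array 1, 2, 3 or 4 was left out (adjusted p = 0.0599 to 0.0993), and it passed in the other 7 such fits. The order of the mean signals was food-deprived (36.7 ± 7.07), water-deprived (31.2 ± 6.47) and control (22.7 ± 4.39, SD, n = 5 each), and the food-deprived and water-deprived means were closer than their spread.

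**Figure D2:**
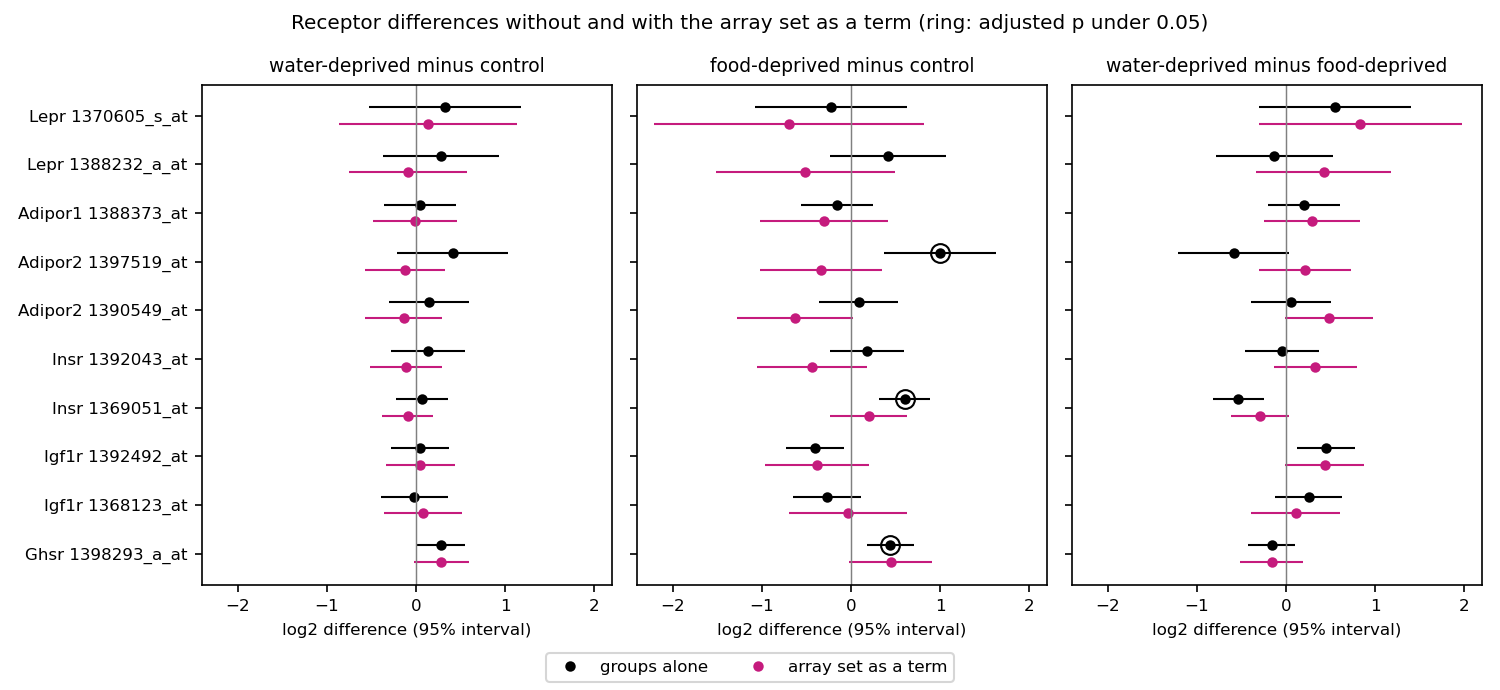
Log2 differences of the 10 tested receptor probe sets (points, with 95% intervals) for water-deprived minus control, food-deprived minus control and water-deprived minus food-deprived, fitted from the groups alone (black) and with the array set as a term (magenta), with rings where the adjusted p was under 0.05. The 3 rings are on the black food-deprived minus control points of Adipor2 1397519_at (1.00), Insr 1369051_at (0.60) and Ghsr (0.44), of which the Ghsr point stayed at 0.45 in magenta with a wider interval.

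Between the array sets themselves, 1 of the 10 receptor probe sets was called, Adipor2 1397519_at, higher in the high set by 1.34 (SE 0.27, adjusted p = 0.00506). In that fit 9.49% of all probe sets tested were called higher in the high set and 6.43% lower. The remaining Adipor2, Insr and second Lepr probe sets had high minus low differences of 0.40 to 0.92 with adjusted p values of 0.068 to 0.117. Those of Lepr 1370605_s_at and Adipor1 were 0.48 and 0.15, and those of Igf1r and Ghsr were -0.24 to -0.01.

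Lepr, Adipor1 and Igf1r 1392492_at followed the level of choroid plexus and ependymal markers from array to array. Of 7 such markers fixed as a list (Ttr, Folr1, Kl, Clic6, Kcnj13, Foxj1 and Ccdc39), 5 had a probe set and 4 passed the filter. The summed signal of the 5 was 2044 to 9023 in water-deprived, 4878 to 8945 in food-deprived and 3150 to 5822 in control arrays. Folr1, a folate receptor of the choroid plexus, was at 105, 118 and 288 in water-deprived array 3 and control arrays 2 and 4, and Kl, which encodes klotho, was at 2.16, 3.10 and 32.5 there. Foxj1, a transcription factor of ciliated cells, had its 3 lowest signals of all arrays there (103, 104 and 142). Ttr, which encodes transthyretin, was lowest of its group in water-deprived array 3 (1832) and control array 2 (2914), but control array 4 was the highest control (3819). These are the arrays lowest for Lepr and Adipor1 in those groups. In the other 12 arrays Folr1 was at 595 or more.

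A slope was fitted beside group and array set, on the mean log2 level of the 5 markers with a probe set, Kcnj13 under the filter included. The fit was chosen after seeing the data. Of the 10 receptor probe sets 6 passed, all with positive slopes. In that fit 11.9% of all probe sets had a positive and 10.4% a negative slope at the same threshold. The slope was 1.02 log2 units per log2 unit for Lepr 1370605_s_at (SE 0.12, adjusted p = 1.96e-05), 0.59 for Lepr 1388232_a_at (SE 0.12, adjusted p = 0.00193) and 0.46 for Adipor1 (SE 0.07, adjusted p = 0.000174). It was 0.32 for Igf1r 1392492_at (adjusted p = 0.00531). These 4 passed in all 15 fits that left out 1 array, with slopes down to 0.86, 0.49, 0.38 and 0.27.

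The slopes of Insr 1392043_at (0.30, adjusted p = 0.0253) and Igf1r 1368123_at (0.30, adjusted p = 0.0434) depended on single arrays. That of Insr 1392043_at was lost without water-deprived array 3 or 5 or control array 5, with adjusted p = 0.0762 to 0.103. That of Igf1r 1368123_at passed in 5 of 15 such fits and was lowest, at 0.20, without control array 2. The slopes of Ghsr (0.11), Insr 1369051_at (0.06), Adipor2 1390549_at (0.065) and Adipor2 1397519_at (0.27) did not pass. That of Adipor2 1397519_at was 0.005 without water-deprived array 3. Of the 3 probe sets called between food-deprived and control arrays, none therefore passed for this slope. Whether choroid tissue entered the dissected samples in unequal amounts was not tested.

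With the marker slope in the fit as well as the set, the Lepr 1370605_s_at difference was 0.35 for water-deprived minus control (SE 0.19, adjusted p = 0.613), -0.06 for food-deprived minus control and 0.42 for water-deprived minus food-deprived. Without the slope these were 0.13, -0.70 and 0.83 with SE of 0.47 to 0.71. The Ghsr difference between food-deprived and control arrays was 0.52 in that fit (SE 0.22, adjusted p = 0.484).

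**Figure D3:**
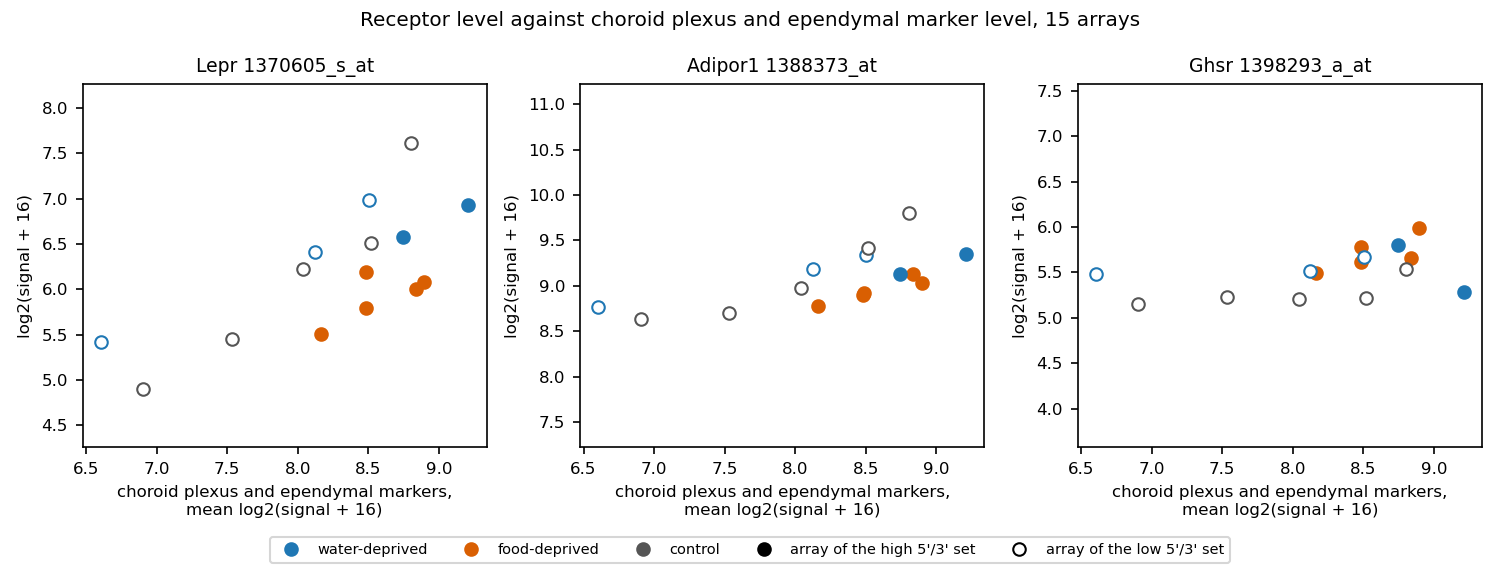
Level of Lepr 1370605_s_at, Adipor1 and Ghsr, as log2(signal + 16), against the mean log2 level of the choroid plexus and ependymal markers, 1 point per array, coloured by group and filled by array set, with vertical axes of equal span. Lepr and Adipor1 are lowest at the left of the water-deprived and control groups and rise to the right, while the slope of Ghsr (0.11) did not pass.

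The genes around the receptors were described through 6 lists, taking the brightest probe set of each gene. Between water-deprived and control arrays, and between water-deprived and food-deprived arrays, no listed gene was called in the fit of the groups alone. Of the 76 genes tested, 10 and 15 had an unadjusted p under 0.05 in these comparisons, against 6.49% and 15.8% of all probe sets. With the array set as a term none was called in any comparison, and 6, 7 and 11 of 76 had an unadjusted p under 0.05 for water-deprived minus control, food-deprived minus control and water-deprived minus food-deprived, against 5.96%, 8.64% and 10% of all probe sets. The calls below are thus between food-deprived and control arrays and without the set term, where 4.77% of all probe sets were called higher and 3.76% lower with a median of 0.05. In all, 11 listed genes were called. Of these, Stat3, Gsk3b, Insrr, Galr2 and Sstr2 passed in all 15 fits that left out 1 array. Tsc2, Stat5a, Gna11, Prkaa2, Sstr3 and Foxo1 passed in 6 to 10 of them, being lost without some food-deprived or control arrays (adjusted p up to 0.11).

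Among the ligands, 4 of 7 were tested and none was called. Adipoq, which encodes adiponectin, had 74.1, 136, 8.83, 72.1 and 114 in water-deprived, 92.2, 104, 70.9, 46.5 and 70.1 in food-deprived and 54.4, 12.3, 102, 29.5 and 174 in control arrays. Its low arrays were again water-deprived array 3 and control arrays 2 and 4. Lep, Ins2 and Ghrl, the genes of leptin, insulin and ghrelin, were under the filter. Ins1 and Igf1 differed by 0.36 (adjusted p = 0.278) and -0.20 (adjusted p = 0.578) between food-deprived and control arrays. Food-deprived array 2 had an Ins1 signal of 97.7, against 34.1 to 37.8 in the other 4 of its group.

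In leptin receptor signalling, 10 of 13 genes were tested, with 1 called higher and 1 lower and a median difference of 0.18. Stat3, the transcription factor that the long leptin receptor activates, had 143, 158, 253, 239.8 and 255 in water-deprived, 57.5, 77.3, 101, 81.1 and 147 in food-deprived and 263, 200.2, 311, 232 and 242 in control arrays. The food-deprived arrays all lay below the lowest control, and so did water-deprived arrays 1 and 2. Stat3 fell by 1.33 (log2, SE 0.20, adjusted p = 0.00252) in probe set 1370224_at, while its dimmer probe set 1371781_at had -0.49 (adjusted p = 0.194). With the array set as a term they stood at -0.66 (adjusted p = 0.573) and 0.45. Stat5a, a related factor, was higher by 0.48 (SE 0.12, adjusted p = 0.0262), and by 0.10 with the set term. Ptpn11, which encodes the phosphatase SHP2, differed by 0.36 without passing (adjusted p = 0.0796).

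In insulin and IGF1 receptor signalling, 29 of 36 genes were tested, with 1 called higher, 3 lower and a median of -0.07, against 4.77%, 3.76% and 0.05 over all probe sets. Insrr, the gene of the insulin receptor-related receptor, had 41.0, 35.0, 8.31, 16.6 and 9.23 in water-deprived, 35.0, 83.0, 49.5, 68.5 and 58.6 in food-deprived and 9.50, 22.6, 27.7, 14.9 and 9.52 in control arrays. All food-deprived arrays exceeded every control, as did water-deprived arrays 1 and 2 of the high set. Insrr was higher by 1.19 (SE 0.25, adjusted p = 0.0121), against 0.20 with the set term. Gsk3b, a kinase that Akt inhibits, fell by 1.37 (SE 0.27, adjusted p = 0.00838). Tsc2, a brake on mTOR, fell by 0.76 (adjusted p = 0.0242) and Foxo1, the transcription factor restrained by insulin, fell by 0.92 (adjusted p = 0.0449). With the set term these 3 stood at -0.23, 0.16 and -0.17.

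In adiponectin receptor signalling, 12 of 16 genes were tested, none was called higher and 1 lower, with a median of -0.05. Prkaa2, a catalytic subunit of AMP-activated kinase, had 49.9, 65.9, 36.6, 30.9 and 74.9 in water-deprived, 16.7, 45.7, 27.4, 14.4 and 6.09 in food-deprived and 67.0, 29.9, 71.2, 43.9 and 128 in control arrays. Food-deprived array 2 overlapped the controls. Prkaa2 fell by 1.12 (SE 0.30, adjusted p = 0.0347), and with the set term the difference was -1.40 with a larger error (SE 0.54, adjusted p = 0.532). Prkag1, a regulatory subunit, differed by 0.36 without passing (adjusted p = 0.0646).

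In ghrelin receptor signalling, 8 of 11 genes were tested, none was called higher and 1 lower, with a median of -0.05. Gna11, a G protein alpha subunit that activates phospholipase C, fell by 0.51 (SE 0.13, adjusted p = 0.0291), and was at -0.13 with the set term. Mrap2, an accessory protein of melanocortin and ghrelin receptors, did not pass in either fit, and its difference turned sign, being -0.23 from the groups alone (SE 0.28, adjusted p = 0.66) and 0.85 with the set term (SE 0.39, adjusted p = 0.573). Among other energy balance receptors, 13 of 22 were tested and 3 were called higher, Galr2 (0.82, adjusted p = 0.0166), Sstr2 (0.65, adjusted p = 0.0129) and Sstr3 (0.60, adjusted p = 0.0291), with a median of 0.10 and with no gene lower, against 4.77%, 0.05 and 3.76% over all probe sets. With the set term they stood at 0.60, 0.45 and 0.14. A dimmer Galr2 probe set had -0.13.

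**Figure D4:**
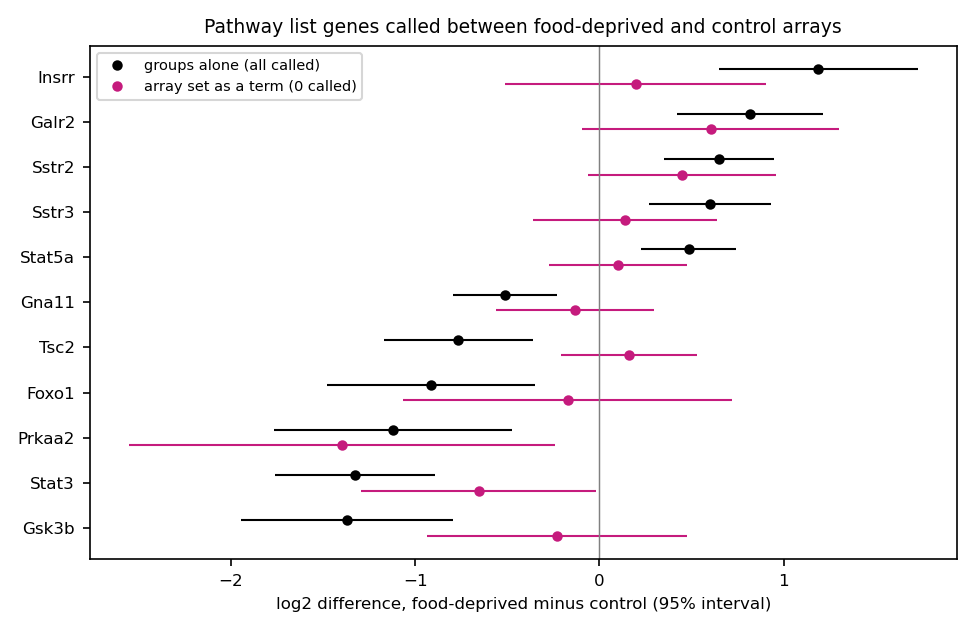
Log2 differences, food-deprived minus control, with 95% intervals, for the 11 listed genes called in the fit of the groups alone (black), beside the same genes with the array set as a term (magenta). None of the magenta values passed the adjusted test, and Prkaa2, Galr2 and Sstr2 moved least among them.

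Motifs of 2 transcription factor families that these pathways use were looked up in windows around the RefSeq starts of the receptor genes (build GRCr8). The windows run from 250 bases before to 50 bases after the start that the gene table gives, and were found for all 6. Whether transcription begins at these starts was not tested, and the Ghsr bases after the start open with atg, the letters of a start codon. The counts are therefore for these windows and not for known promoters. The forkhead motif GTAAACA, searched on both strands, matched in 2 of the 6, Adipor1 and Insr, and in 3.78% of 33469 windows. The STAT motif TTCNNNGAA, searched likewise, matched in none of the 6 and in 8.87% of all windows. A match is a run of letters and not a measured binding site, and the arrays hold no binding data. The 250 bases before the start of both matching genes are shown 5′ to 3′ along the gene's strand, with the motif in capitals, because Insr was called between food-deprived and control arrays and Adipor1 was not. The Adipor1 stretch is chr13:48411680-48411929 on the plus strand, with the match beginning 168 bases before the start. The Insr stretch is chr12:6128804-6129053 on the minus strand, with the reverse complement of the motif beginning 100 bases before the start.
Adipor1: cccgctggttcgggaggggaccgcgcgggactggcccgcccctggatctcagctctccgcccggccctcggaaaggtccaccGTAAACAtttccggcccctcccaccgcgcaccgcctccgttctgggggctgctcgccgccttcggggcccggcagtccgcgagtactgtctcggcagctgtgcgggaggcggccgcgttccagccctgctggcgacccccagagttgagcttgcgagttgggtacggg
Insr: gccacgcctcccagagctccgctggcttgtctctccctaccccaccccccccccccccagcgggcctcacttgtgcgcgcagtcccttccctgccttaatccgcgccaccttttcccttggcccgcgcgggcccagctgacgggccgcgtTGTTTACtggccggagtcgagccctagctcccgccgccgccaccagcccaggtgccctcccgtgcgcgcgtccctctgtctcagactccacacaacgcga

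The genes most like each receptor across the 15 arrays were named by Pearson correlation of log2 signal, as a description over arrays that share group and array set. For Lepr 1370605_s_at they were Sec23b (r = 0.961), Copb1 (0.957) and Myo5c (0.956). For Adipor1 they were Mia2 (0.98), Mapk4 (0.975) and Dab2 (0.973). Over deviations from the mean of each group and array set, the gene closest to Lepr was Ap3b1 (0.986) and the gene closest to Adipor1 was Slc22a8 (0.985), an organic anion transporter. For Adipor2 1397519_at they were Ppp5c (0.966), Itpr2 (0.961) and Hnrnpf (0.96), for Insr 1392043_at Atp6v0a2 (0.931), Galc (0.93) and Pdgfra (0.917), and for Igf1r 1392492_at Fndc3b (0.927), Dyrk3 (0.912) and Cand1 (0.893). Ghsr had the lowest values, led by Zranb3 (0.842), Icmt (0.821) and Bco1 (0.798).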

How the data were processed

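Each deposited value is a linear signal intensity of 1 probe set, which the authors obtained from GCOS 1.2 (per the submitters' processing notes). Their scaling target is not given in the sources used here. Every array had a trimmed mean of 100.0 (2% off each end), so no further normalization was applied in the main fit. The low end of the signals still differed between groups. The 25th percentile was 15.7 to 17.3 in food-deprived, 12.3 to 17.2 in water-deprived and 13.0 to 14.2 in control arrays. Its part in the calls of dim probe sets was not tested, and results with other normalizations are given below. Values were taken as log2(signal + 16). Of 31099 probe sets, 57 are controls and 20826 have a single gene symbol, 436 several and 9780 none, and 20758 of those with a single symbol matched the RefSeq gene table.

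Probe sets with a mean log2 above the 30th percentile (5.11) were tested, 21741 in all. limma 3.58.1 in R 4.3.3 fitted the 3 groups together (lmFit and eBayes with a trend, two-sided, 12 residual degrees of freedom), with Benjamini-Hochberg adjustment over all of them and calls under 0.05. The array set, split at a log2 5′/3′ ratio of -1, was added as a term (11 residual degrees of freedom). The arrays of a group are separate pools, and their number limits the precision, since arrays give no counts. Detection calls were not used. The fit was tested on simulated data.

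The named genes are all member probe sets, the listed genes called in either fit or with the smallest p per list, and the 3 genes most like each member by correlation. The members, lists and tests were chosen with earlier results of these data known, so no list count is independent evidence. Alternatives were normalization, offset, filter, variance trend, the replicate number as a block, the 5′/3′ ratio, and leaving out each array. The fit with choroid markers and the leave-one-out fits of the listed genes were added after seeing the data. Figures were drawn with matplotlib 3.10.9, and tables were handled with pandas 2.3.3 and numpy 2.4.6 in Python 3.11.15.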

Additional observations from a re-analysis of the deposited data

Results flagged for a closer look

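Of 48 groups of 5 arrays tested with Dixon's ratio, the gap of the outermost array divided by the whole range on the log2 scale, 5 held an array above the critical value of 0.71, where chance flags about 1 in 20. Lepr 1371223_a_at was apart in food-deprived array 1, with a signal of 37.2 and a ratio of 0.841. Lepr 1371222_at was apart in food-deprived array 4, at 6.57 with a ratio of 0.719, and Lepr 1370604_at in control array 5, at 35.3 with a ratio of 0.853. These 3 Lepr probe sets were under the filter and have no test. Igf1r 1368123_at was apart in water-deprived array 1, at 75.8 with a ratio of 0.844, below the other 4 arrays of its group. Ghsr was apart in control array 5, at 30.5 with a ratio of 0.802, and without that array its food-deprived minus control difference was 0.51 (adjusted p = 0.035).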

How the results depend on the processing

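The Insr 1369051_at difference between food-deprived and control arrays passed under both other normalizations, both offsets, no filter, the variance without a trend and the replicate block, and did not pass in any fit that held the array set, or in that with the 5′/3′ ratio. It was not tested with the filter at the 50th percentile. The Adipor2 1397519_at call was lost with median centring (adjusted p = 0.0511), offset 1 (0.0618), no filter (0.0538), the filter at the 50th percentile (0.0534) and the replicate block (0.073). The Ghsr call was lost with quantile normalization (adjusted p = 0.141), median centring (0.0968), no filter (0.0524) and the replicate block (0.0773). Its difference was 0.31 with quantile normalization and 0.34 with median centring. Receptor probe sets called between food-deprived and control arrays numbered 3 at first, 1 with median centring, no filter or the replicate block, and 0 with the filter at the 50th percentile, where 2 of the 3 probe sets were no longer tested. They numbered 0 with the array set, the 5′/3′ ratio, the set with the replicate block and the set with the choroid markers.

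Offset 64 and the variance without a trend changed no receptor call. Of all probe sets, 1 was called for water-deprived minus control, 1855 for food-deprived minus control and 33 for water-deprived minus food-deprived. The first count was 3 with no filter and 0 with the filter at the 50th percentile or the replicate block. The second was 1120 with that filter. The third was 107 with quantile normalization, 99 with median centring, 71 with that filter and 20 with the replicate block. In the same order the counts were 6, 0 and 0 with the array set, 3, 139 and 0 with the 5′/3′ ratio, 0, 0 and 0 with the set and the replicate block, and 9, 0 and 5 with the set and the choroid markers. Same-numbered arrays of different groups correlated in their deviations from the group mean at -0.361 to 0.365. Arrays of different number were not compared, so whether the numbers pair the samples was not settled.

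Differences turned sign with quantile normalization, to 0.072 (Insr 1392043_at) for water-deprived minus food-deprived. Median centring turned them to -0.016 (Adipor2 1390549_at) for food-deprived minus control. Water-deprived minus food-deprived gave 0.049 (Insr 1392043_at). The set term turned them to -0.088 (Lepr 1388232_a_at), -0.012 (Adipor1 1388373_at), -0.12 (Adipor2 1397519_at), -0.14 (Adipor2 1390549_at), -0.11 (Insr 1392043_at), -0.094 (Insr 1369051_at) and 0.080 (Igf1r 1368123_at) for water-deprived minus control. Food-deprived minus control gave -0.51 (Lepr 1388232_a_at), -0.34 (Adipor2 1397519_at), -0.62 (Adipor2 1390549_at) and -0.44 (Insr 1392043_at). Water-deprived minus food-deprived gave 0.42 (Lepr 1388232_a_at), 0.21 (Adipor2 1397519_at) and 0.33 (Insr 1392043_at). The ratio turned them to -0.13 (Adipor2 1390549_at) and -0.14 (Insr 1392043_at) for food-deprived minus control. Water-deprived minus food-deprived gave 0.21 (Lepr 1388232_a_at), 0.018 (Adipor2 1397519_at) and 0.23 (Insr 1392043_at). Set and replicate block turned them to -0.016 (Lepr 1370605_s_at), -0.14 (Lepr 1388232_a_at), -0.071 (Adipor1 1388373_at), -0.14 (Adipor2 1397519_at), -0.070 (Adipor2 1390549_at), -0.057 (Insr 1392043_at) and -0.14 (Insr 1369051_at) for water-deprived minus control. Food-deprived minus control gave -0.64 (Lepr 1388232_a_at), -0.39 (Adipor2 1397519_at), -0.45 (Adipor2 1390549_at) and -0.30 (Insr 1392043_at). Water-deprived minus food-deprived gave 0.50 (Lepr 1388232_a_at), 0.25 (Adipor2 1397519_at) and 0.24 (Insr 1392043_at). Set and choroid markers, a fit chosen after seeing the data, turned them to -0.063 (Adipor2 1397519_at), -0.12 (Adipor2 1390549_at), -0.047 (Insr 1392043_at), -0.081 (Insr 1369051_at) and 0.14 (Igf1r 1368123_at) for water-deprived minus control. Food-deprived minus control gave -0.14 (Lepr 1388232_a_at), -0.17 (Adipor2 1397519_at), -0.58 (Adipor2 1390549_at), -0.25 (Insr 1392043_at) and 0.16 (Igf1r 1368123_at). Water-deprived minus food-deprived gave 0.18 (Lepr 1388232_a_at), 0.10 (Adipor2 1397519_at), 0.21 (Insr 1392043_at) and -0.011 (Igf1r 1368123_at).

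Leaving out 1 array at a time, without and with the set term, gave 0 to 3 receptor calls for food-deprived minus control and 0 to 1 for water-deprived minus food-deprived. It gave 0 to 13, 0 to 2856 and 0 to 773 calls over all probe sets in the 3 comparisons. Without the set term the food-deprived minus control count was lowest at 811 without control array 1 and highest at 2856 without water-deprived array 3, and the 773 calls came without water-deprived array 1. Among differences that turned sign in such fits, the ranges for water-deprived minus control were -0.22 to 0.69 (Lepr 1370605_s_at), -0.39 to 0.50 (Lepr 1388232_a_at), -0.13 to 0.22 (Adipor1 1388373_at), -0.36 to 0.74 (Adipor2 1397519_at), -0.32 to 0.30 (Adipor2 1390549_at), -0.32 to 0.29 (Insr 1392043_at), -0.15 to 0.14 (Insr 1369051_at), -0.16 to 0.18 (Igf1r 1392492_at) and -0.16 to 0.22 (Igf1r 1368123_at). Among differences that turned sign in such fits, the ranges for food-deprived minus control were -1.05 to 0.14 (Lepr 1370605_s_at), -0.81 to 0.63 (Lepr 1388232_a_at), -0.43 to 0.020 (Adipor1 1388373_at), -0.58 to 1.07 (Adipor2 1397519_at), -0.80 to 0.16 (Adipor2 1390549_at), -0.69 to 0.26 (Insr 1392043_at) and -0.41 to 0.26 (Igf1r 1368123_at). Among differences that turned sign in such fits, the ranges for water-deprived minus food-deprived were -0.33 to 0.67 (Lepr 1388232_a_at), -0.80 to 0.26 (Adipor2 1397519_at), -0.092 to 0.67 (Adipor2 1390549_at), -0.20 to 0.58 (Insr 1392043_at), -0.18 to 0.40 (Igf1r 1368123_at) and -0.42 to 0.10 (Ghsr 1398293_a_at). The number of arrays limits the precision, and the cause of these shifts was not tested. Between food-deprived and control arrays, fits with the set term rest on water-deprived arrays alone to part set from group.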
